A study of Mus musculus with 4 samples.

Results

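The genes described here encode the ligands and receptors that steer growing axons: semaphorins, ephrins and netrins on the ligand side, and plexins, neuropilins, Eph receptors, UNC5 proteins, Dcc and Neo1 on the receptor side. They were taken by gene symbol from the autosomal protein-coding genes of GENCODE M21 on mm10, which gave 61 of 20807 genes, 31 for ligands and 30 for receptors. The symbols Efnb1, Plxna3 and Plxnb3 lie on the X chromosome and were left out. Unc5cl entered through its symbol and is counted among the 30 receptors, although it is not a netrin receptor. The label fits the symbols and says nothing of whether these cells made the proteins, because no expression was measured here.

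Semaphorins are secreted or membrane-bound cues that act through plexins, and most of the secreted class 3 also need a neuropilin. Ephrins are tethered to the membrane and bind Eph receptor tyrosine kinases on the neighbouring cell, ephrin-A mainly EphA and ephrin-B mainly EphB. Netrin-1 attracts axons through Dcc and repels them through UNC5 receptors. In the embryonic brain many of these molecules also act on progenitors, cell sorting and blood vessels.

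The data came from neural stem cells of wild-type (WT) C57BL/6J mouse embryos at E12.5, cultured with EGF at 20 ng/ml and FGF at 10 ng/ml. Of 4 samples in 4 groups of 1, chromatin immunoprecipitation of PHF2 (Cell Signaling antibody D45A2) and of H3K9me2 (Abcam antibody ab1220) each gave a list of called intervals, and the inputs of PHF2 and of H3K9me2 were not analysed here. PHF2 is a histone demethylase whose PHD finger docks on H3K4me3 at active promoters. H3K9me2, dimethylated lysine 9 of histone H3, accompanies gene silencing and is the modification that PHF2 has been described to remove. The labels name no sorting and do not say how many embryos were pooled. All 8 neural stem cell markers examined (Sox2, Nes, Vim, Pax6, Hes1, Fabp7, Slc1a3 and Notch1) had a PHF2 peak at a start. Of all autosomal protein-coding genes 30.3% had one. Myod1, Alb and Cdx2, markers of other lineages, had 0, and Gata1, also planned, was not counted. These few genes were chosen by hand and do not test the identity of the cells. The PHF2 list held 5992 peaks with deposited scores from 100.02 to 3226, and the H3K9me2 list held 36171 regions, 55.6% of them at the minimum length of 73 bp. The depth of the samples is unknown, and with 1 sample per group there was no replicate spread and no test between samples. A gene had a peak or region at a start when it overlapped by 1 bp or more a window of 1 kb on either side of an annotated transcript start.

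PHF2 peaks lay at the starts of many guidance genes, while H3K9me2 regions lay at none of them. Of the 61 genes, 29 (47.5%) had a PHF2 peak at a start, where 30.3% of all autosomal protein-coding genes had one. H3K9me2 regions lay at the starts of 0 of 61 guidance genes, which allows a share of up to 4.92%, and at the starts of 3.61% of all genes, so a difference was not detectable with this number of genes. Among the ligands 12 of 31 (38.7%) had a PHF2 peak, and among the receptors 17 of 30 (56.7%). Receptor genes were also longer, with a median of 130.1 kb against 27.9 kb for ligand genes. The part of length in this difference was not tested.

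The semaphorins, 20 genes in all, had PHF2 peaks at 8 (40%, against 30.3% of all genes). Class 6, whose products are transmembrane proteins that bind A-type plexins, had the highest scores of all guidance genes. Sema6a had a score of 1747 on a peak of 4961 bp, rank 40 of the 5992 peaks, on chromosome 18 from 47365981 to 47370941. Sema6d had 2 peaks at different starts. The one at the inner start scored 1553 (chromosome 2, 124609289 to 124612829), and the one at the 5'-most start scored 701 (124089615 to 124091623). The other class 6 genes, Sema6b and Sema6c, had no peak. In the secreted class 3, Sema3a, the classical repellent, scored 575, Sema3d 166 and Sema3c 124, whereas Sema3b, Sema3e, Sema3f and Sema3g had no peak. In the transmembrane class 4, Sema4c scored 801 and Sema4b 386, and Sema4a, Sema4d, Sema4f and Sema4g had no peak. Sema5b scored 400.1, and Sema5a and the membrane-anchored Sema7a had no peak.

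Of the other ligands, ephrin genes had PHF2 peaks at 2 of 7 (28.6%), near the 30.3% of all genes. Netrin genes had them at 2 of 4 (50%). Efnb2, which encodes an ephrin-B of arterial vessels and neural progenitors, scored 1269 on a peak of 3200 bp (chromosome 8, 8658824 to 8662023). Efnb3 had no peak. Among the ephrin-A genes, which encode lipid-anchored ligands, Efna4 alone had a peak, and its score of 119.9 was close to the lowest of the list. Efna1, Efna2, Efna3 and Efna5 had none. Efna1, Efna3 and Efna4 are neighbours on chromosome 3 with gaps of 32.8 and 10.4 kb. Ntn1 scored 800.4 (chromosome 11, 68385210 to 68387457) and Ntn4, which encodes a netrin related to laminin beta chains, 609. Ntn3 and Ntn5 had no peak.

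Receptor genes for semaphorins had PHF2 peaks more often than the semaphorin genes themselves, though the difference was not tested. Plexins, which transmit the semaphorin signal, had peaks at 6 of 7 genes (85.7%, against 30.3% of all genes). Plxna2 scored 921 (chromosome 1, 194619441 to 194621331), Plxnc1, a receptor for Sema7a, 409, and Plxnb2 and Plxnb1, receptors for class 4 semaphorins, 237 and 175. Plxna1 scored 224 and Plxna4 194. Plxnd1, the receptor of Sema3e, had no peak, and neither had Sema3e. Nrp1, a co-receptor for Sema3a and for VEGF, scored 804 (chromosome 8, 128357884 to 128360406). Nrp2, a co-receptor for Sema3f, scored 377.

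Eph receptor genes had PHF2 peaks at 5 of 14 (35.7%), near the 30.3% of all genes. In the EphA group these were 2 of 9, Epha5 with a score of 821 (chromosome 5, 84415786 to 84417940) and Epha4, whose product binds ephrins of both classes, with 264. Epha1, Epha2, Epha3, Epha6, Epha7, Epha8 and Epha10 had no peak. In the EphB group they were 3 of 5, with scores of 764 at Ephb3, 299 at Ephb1 and 173 at Ephb4, which encodes the vascular receptor of the Efnb2 product. Ephb2 and Ephb6, which encodes a receptor with an inactive kinase, had no peak. Differences between the families were not tested.

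Netrin receptor genes were divided. Neo1, which encodes neogenin, also a receptor of repulsive guidance molecules, scored 809 (chromosome 9, 59035369 to 59037599), and Dcc scored 353. The UNC5 genes had lower scores, 207 at Unc5c and 124 at Unc5b, and Unc5a and Unc5d had no peak. Neither had Unc5cl, which is placed in this family by symbol only.

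**Figure D1:**
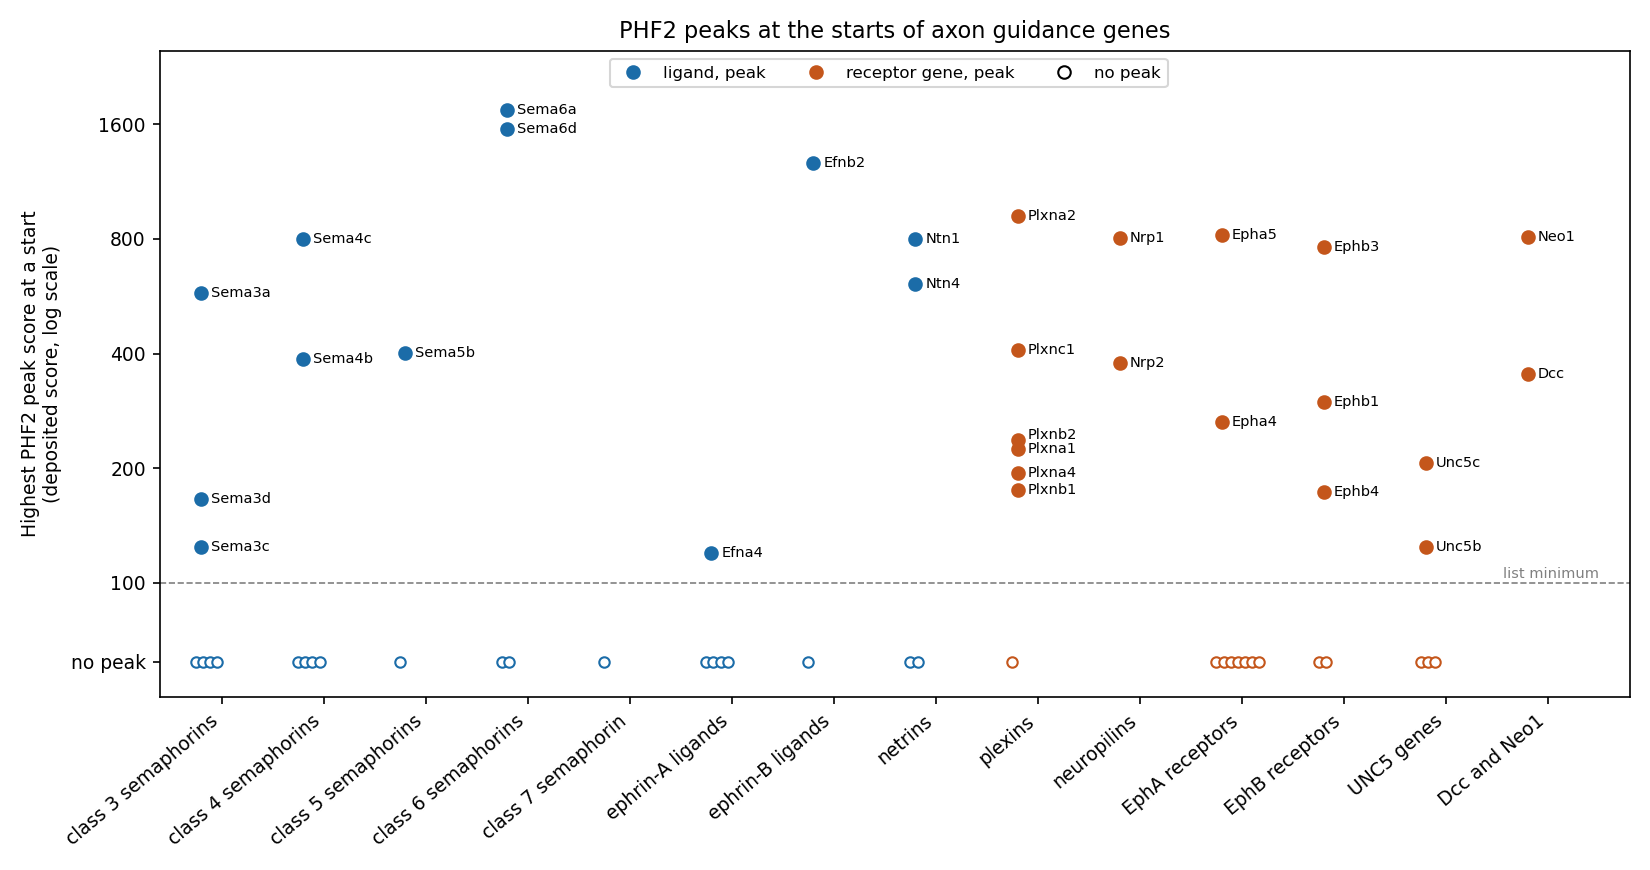
Highest deposited PHF2 score at a start (log scale) for each guidance gene, by family, ligand families to the left in blue and receptor families to the right in orange. Open points are genes without a peak, placed below the lowest score of the list. Sema6a (1747), Sema6d (1553) and Efnb2 (1269) stand highest, and 7 of the 9 EphA receptor genes have no peak.

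Where guidance genes had a PHF2 peak, it often ranked high in the list. The 30 peaks at their starts had a median score of 393 and a median length of 1709 bp, and the 5670 peaks at starts of other genes had a median score of 230.3 and a median length of 1311 bp. A peak among the highest-scoring 10% of the list lay at 10 of the 61 guidance genes (16.4%), and at 2.97% of all genes. For the highest-scoring 25% these shares were 26.2% (16 genes) and 7.67%. Both pairs of shares also count genes without a peak. Among genes with a peak, the highest-scoring 10% lay at 10 of 29 guidance genes and 609 of 6277 other genes. For the highest-scoring 25% the counts were 16 of 29 and 1580 of 6277. At the low end, Efna4 (119.9), Sema3c (124) and Unc5b (124) were the guidance genes nearest to the lowest score of the list, 100.02, so a stricter threshold would remove these first. The part of depth and of the caller's settings in the scores was not tested.

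The peaks sat on the starts and reached mainly into the genes. Their centres lay from -184 bp (Plxnb1, upstream) to 816 bp (Efnb2, downstream) of the nearest start, with a median of 249 bp downstream, and the median for peaks at other genes was 118 bp downstream. Of the 30 centres, 22 (73.3%) lay downstream, as did 71.7% of the centres at other genes. No start of another protein-coding gene lay in reach of any of the 30 peaks, but windows of noncoding genes did at Efna4, Efnb2, Epha4, Nrp1, Sema4c and Unc5c, so for these the peak cannot be assigned to 1 transcript. At Ntn1, Plxna2, Sema3a and Sema4b the peak lay at an inner start and not at the 5'-most one. Beyond the windows, Dcc had a second peak with a score of 105, 1295 bp from its nearest start, and Nrp2 a second with a score of 301, 2310 bp from its nearest start. PHF2 peaks away from all starts of the gene thus occurred in the bodies of 2 guidance genes (3.28%), and of 1.08% of all genes.

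**Figure D2:**
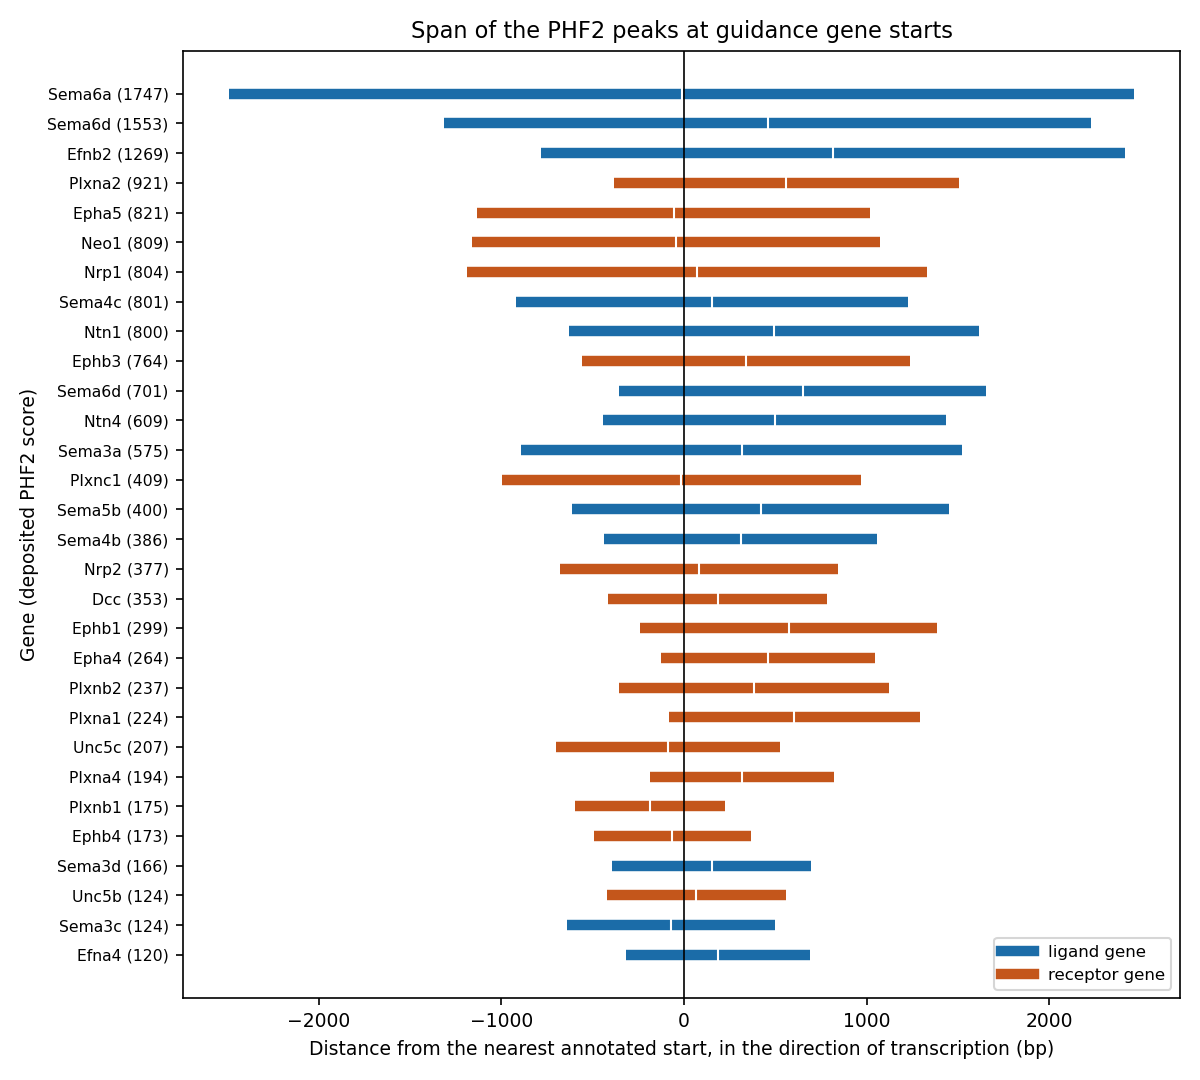
Span of the 30 PHF2 peaks at guidance gene starts, in bp from the nearest annotated start in the direction of transcription, ordered by deposited score (in parentheses), with a white mark at each centre. The peak of Sema6a spans 4961 bp around its start, and all centres lie between -184 and 816 bp.

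Guidance genes have CpG-rich starts, and at a like CpG content the gap between their share with PHF2 and that of other genes varied. CpG observed/expected, the number of CpG dinucleotides relative to that given by the C and G content, had a median of 0.483 in the start windows of guidance genes and 0.366 in those of other genes. All genes were put in 3 classes of equal size by this value. In the highest class (0.455 and above), 19 of 33 guidance genes (57.6%) had a PHF2 peak, and 55.1% of other genes. In the middle class (from 0.280) they were 10 of 23 (43.5%), against 33.5% of other genes, and in the lowest class 0 of 5, against 2.29%. In narrower classes the shares were 53.8% of 13 guidance genes and 30.9% of other genes from 0.3 to 0.4. From 0.4 to 0.5 they were 52.9% of 17 and 45.9%, and from 0.5 to 0.6 they were 57.1% of 14 and 50.7%. From 0.6 to 0.7 the order was reversed, with 42.9% of 7 guidance genes and 56.9% of other genes. From 0.7 to 0.8 the shares were 66.7% of 3 and 64.3%. Guidance genes under 0.3, and the 1 from 0.8 to 0.9 (71% of other genes), had no peak. Among guidance genes, those with a peak had a median of 0.496 and those without one 0.431, and the ranges overlapped (0.315 to 0.725 with a peak, 0.167 to 0.832 without). Genes with a peak were also longer, with a median of 144.8 kb against 27.6 kb for guidance genes without one, and other genes had medians of 30.9 kb with a peak and 13.6 kb without one. The part of length in the presence of a peak was not tested. Receptor genes had a median CpG observed/expected of 0.492 and ligand genes of 0.445.

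The 5 guidance genes with the highest CpG observed/expected among those without a PHF2 peak were Efna5 (0.832), Epha7 (0.735), Unc5d (0.693), Sema7a (0.668) and Epha8 (0.626). At the other end, Ntn5 (0.167), Sema3g (0.173) and Sema4a (0.217) had CpG-poor starts and no peak. The lowest value with a peak was 0.315, at Sema3d.

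**Figure D3:**
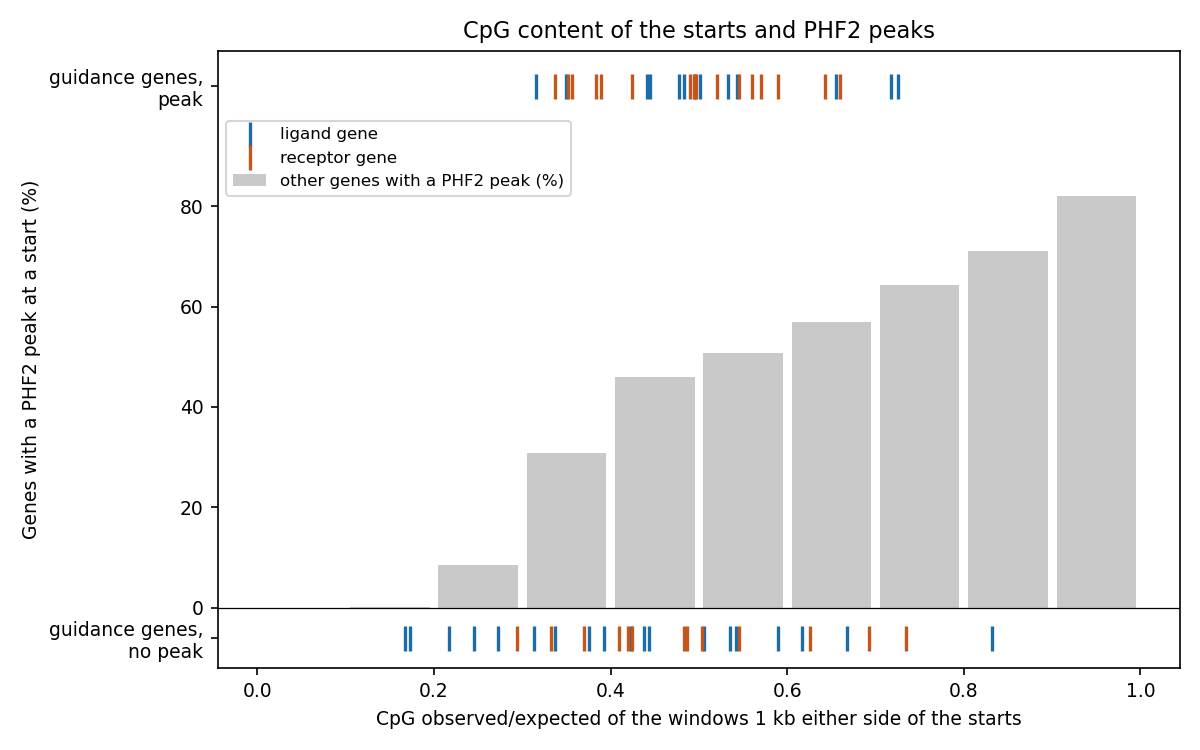
Guidance genes with a PHF2 peak (ticks at the top) and without one (ticks at the bottom) by CpG observed/expected of their start windows, ligand genes in blue and receptor genes in orange. Grey bars give the percentage of other genes with a PHF2 peak in each class of CpG content. The 29 genes with a peak run from 0.315 to 0.725, and Efna5, at 0.832 the most CpG-rich of all, has none.

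Promoter sequences show this range. RefSeq promoters (GRCm38.p6) were found for 52 of the 61 genes, 66 promoters in all, and each sequence is the 250 bases before a RefSeq start, 5' to 3' on the strand of the gene, with CpG dinucleotides in capitals. The first 3 are the genes with the highest top score among those with 250 bases wholly inside a PHF2 peak and outside annotated exons, on the chromosomes used for sequences: Sema6d (chr2:124089719-124089968, plus strand, 9 CpG), Efnb2 (chr8:8661243-8661492, minus strand, 27 CpG) and Epha5 (chr5:84417383-84417632, minus strand, 20 CpG). The Sema6d sequence lies under the peak at its 5'-most start, with a score of 701, and not under the peak of 1553 by which the gene was ranked. Efna5 (chr17:62881318-62881567, minus strand, 32 CpG) and Epha7 (chr4:28812881-28813130, plus strand, 25 CpG) are CpG-rich without a peak. Ntn5 (chr7:45683772-45684021, plus strand, 2 CpG) is CpG-poor without a peak.
Sema6d: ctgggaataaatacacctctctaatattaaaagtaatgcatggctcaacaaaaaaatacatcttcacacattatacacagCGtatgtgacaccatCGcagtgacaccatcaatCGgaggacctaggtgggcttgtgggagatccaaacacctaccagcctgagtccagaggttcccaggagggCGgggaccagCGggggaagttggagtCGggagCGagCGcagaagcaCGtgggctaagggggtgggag
Efnb2: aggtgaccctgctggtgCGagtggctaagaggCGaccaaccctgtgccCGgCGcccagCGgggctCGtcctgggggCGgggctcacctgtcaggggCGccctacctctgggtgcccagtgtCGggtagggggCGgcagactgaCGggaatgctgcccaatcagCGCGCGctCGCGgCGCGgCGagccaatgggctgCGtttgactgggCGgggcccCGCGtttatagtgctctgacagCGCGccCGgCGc
Epha5: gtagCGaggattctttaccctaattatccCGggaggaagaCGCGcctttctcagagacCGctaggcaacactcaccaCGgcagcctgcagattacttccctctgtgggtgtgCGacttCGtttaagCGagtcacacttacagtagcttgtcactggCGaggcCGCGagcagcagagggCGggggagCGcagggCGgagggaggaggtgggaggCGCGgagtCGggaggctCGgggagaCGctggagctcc
Efna5: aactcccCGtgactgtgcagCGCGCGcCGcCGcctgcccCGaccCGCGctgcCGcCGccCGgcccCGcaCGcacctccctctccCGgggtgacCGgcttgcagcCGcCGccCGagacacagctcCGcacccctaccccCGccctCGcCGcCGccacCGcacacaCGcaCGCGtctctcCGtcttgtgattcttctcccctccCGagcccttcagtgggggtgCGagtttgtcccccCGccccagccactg
Epha7: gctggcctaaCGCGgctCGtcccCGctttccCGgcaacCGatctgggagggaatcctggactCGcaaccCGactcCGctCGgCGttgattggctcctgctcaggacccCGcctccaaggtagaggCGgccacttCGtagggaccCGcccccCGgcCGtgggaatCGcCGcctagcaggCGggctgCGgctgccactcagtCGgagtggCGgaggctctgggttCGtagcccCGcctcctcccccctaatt
Ntn5: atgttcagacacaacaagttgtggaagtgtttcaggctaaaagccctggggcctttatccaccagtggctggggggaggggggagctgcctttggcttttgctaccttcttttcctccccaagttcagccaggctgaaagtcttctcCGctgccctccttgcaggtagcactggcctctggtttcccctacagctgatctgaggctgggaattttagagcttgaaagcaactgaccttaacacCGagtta

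Efna5 and Epha7 were picked for their CpG content, so their counts beside those of the other sequences are a description only. Over the promoters found for guidance genes the median was 19.5 CpG with a PHF2 peak (28 promoters) and 15.5 without one (38 promoters). It was 11 over the 19174 promoters found for 15687 of the 20807 autosomal protein-coding genes, called all promoters here. The GC box of SP and KLF factors, GGGCGG, occurred on either strand in 51 of 66 guidance promoters (77.3%) and in 44.6% of all promoters of this length. With a PHF2 peak its share was 75% and without one 78.9%. The ETS motif CCGGAAG occurred in 2 of 66 (3.03%, against 9.45% of all promoters), the E-box CACGTG in 3 (4.55%, against 6.82%), the CRE TGACGTCA in 1 (1.52%, against 2.03%) and the palindromic NRF1 motif in 0 (1.12% of all promoters). Each motif holds a CpG and none contains another, and a match is a description of the sequence only.

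H3K9me2 regions lay inside the long guidance genes. In the 9.70 Mb of guidance gene bodies there were 165 regions, 17.0 per Mb (95% exact Poisson interval 14.5 to 19.8), and in other genes there were 13.4 per Mb (13.2 to 13.7). The intervals cover counting error only and treat regions as independent. At least 1 region lay in 27 of the 61 guidance genes (44.3%), and in 24.9% of all genes, but guidance genes had a median length of 56.6 kb and other genes of 17.6 kb. Within length classes the shares of guidance and other genes were 0% and 8.68% under 30 kb, and 37.5% and 39.5% from 30 to 100 kb. They were 71.4% and 78.6% from 100 to 200 kb, and 100% and 97.8% over 200 kb.

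By length class the 2 sets of genes stood in no constant order. Over 200 kb, 14 guidance genes had 19.6 regions per Mb (16.4 to 23.3) and other genes 16.9 (16.5 to 17.3). From 100 to 200 kb the values were 13.4 (8.93 to 19.4) for guidance genes and 13.4 for other genes, and from 30 to 100 kb they were 9.59 (2.61 to 24.5) and 10.8. Under 30 kb there were 0 regions in 25 guidance genes (up to 8.74 per Mb by the exact Poisson interval) and 8.79 per Mb (8.32 to 9.28) in other genes. Ligand and receptor genes kept no fixed order. Among genes over 200 kb the 6 ligand genes had 25.2 regions per Mb (19 to 32.7) and the 8 receptor genes 16.9 (13.3 to 21.1), and from 100 to 200 kb the 6 ligand genes had 4.88 (4 regions) and the 8 receptor genes 19 (24 regions).

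A few genes held most of the regions. The 10 genes with the most regions held 126 of the 165 (76.4%) on 55.1% of the length. Dcc, the longest guidance gene with 1097 kb, had 21 regions (19.1 per Mb). Plxna4 had 18 (40.5 per Mb), Sema6d 16 (27.7 per Mb) and Sema5a, which encodes a transmembrane semaphorin with thrombospondin repeats, 15 (33.2 per Mb). The highest densities among these 10 were 45.3 per Mb at Plxna2 and 43.8 per Mb at Sema3d, each with 9 regions, and the lowest was 13.7 per Mb at Epha6, with 13. Sema3a had 10, Unc5d 9 and Epha5 6. A further 17 genes had 1 to 4 regions. These were Sema3e, Epha3, Ephb1 and Plxnc1 with 4, Epha4 and Epha7 with 3, Efna5, Sema3c, Neo1, Nrp2, Unc5c and Unc5cl with 2, and Sema4b, Sema5b, Sema6a, Ephb2 and Unc5a with 1. The other 34 genes had 0, among them all netrins, Nrp1, Efnb2 and every guidance gene under 30 kb. The class 3 genes Sema3d, Sema3a and Sema3e follow each other on chromosome 5 with gaps of 536.5 and 422.7 kb, and they had 9, 10 and 4 regions.

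**Figure D4:**
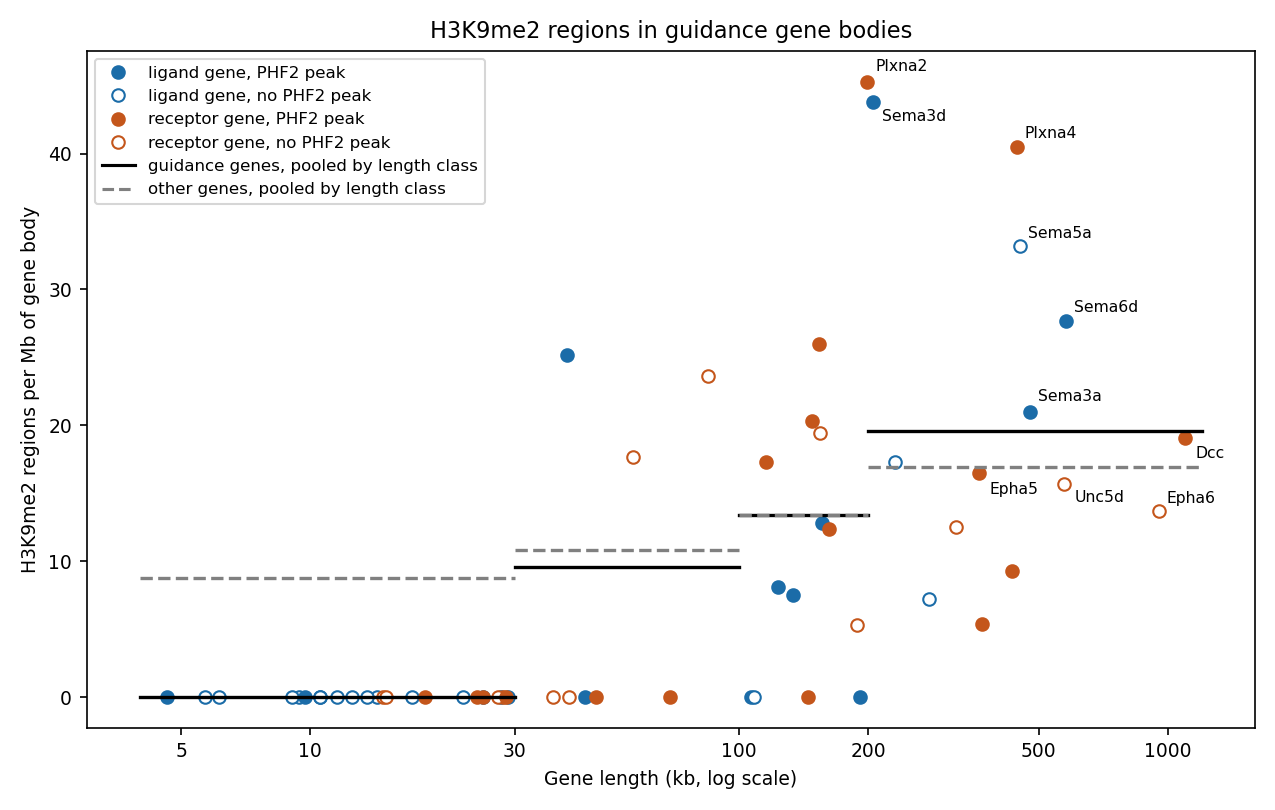
H3K9me2 regions per Mb of gene body against gene length (log scale) for the 61 guidance genes, filled where the gene has a PHF2 peak at a start, with the pooled density by length class of guidance genes (black) and other genes (dashed grey). Plxna2, Sema3d and Plxna4 lie above 40 per Mb, and genes under 30 kb lie at 0.

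Within the genes, 162 of the 165 regions (98.2%) lay in introns and 3 touched an annotated exon, at Plxna4, Sema3d and Sema5a. A total of 75 (45.5%) lay nearer to the 5'-most start of the gene than to its other end. They were short, with 58.8% at the minimum of 73 bp and the longest, 230 bp, in an intron of Unc5d (chromosome 8, 29003323 to 29003552), and 56.2% of regions in other genes had the minimum length. They held no CpG in 60.6% of cases and in 55.1% at other genes. Bases masked as repeats in the reference made up 50% or more of 8.48% of the regions in guidance genes and of 14.8% in other genes, and 23.3% of the guidance gene bodies is masked. As examples, the longest intronic region of each of 2 semaphorin genes with many regions is printed on the strand of the gene, 5' to 3', with masked bases in capitals. With 148 and 134 bp, and 15 and 23 masked bases, they are not typical. Regions in guidance genes had a median length of 73 bp and a median masked share of 0%. They lie in Sema6d (chr2:124425662-124425809, plus strand, mm10, 1 CpG) and Sema5a (chr15:32496685-32496818, plus strand, 1 CpG).
Sema6d: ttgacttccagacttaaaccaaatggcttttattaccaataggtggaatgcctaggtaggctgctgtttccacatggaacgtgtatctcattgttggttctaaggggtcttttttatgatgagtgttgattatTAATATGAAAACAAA
Sema5a: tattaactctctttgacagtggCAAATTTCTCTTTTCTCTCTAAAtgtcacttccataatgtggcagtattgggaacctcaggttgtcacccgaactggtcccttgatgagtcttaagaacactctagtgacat

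PHF2 peaks at starts and H3K9me2 regions in bodies were also counted together, which does not test whether they keep apart. A PHF2 peak at a start and an H3K9me2 region in the body occurred together in 17 of 61 guidance genes (27.9%), and in 9.42% of all genes, and both features were more frequent in long genes. The nearest H3K9me2 region lay 1.90 kb (Sema4b) to 289 kb (Plxna1) from a PHF2 peak at a guidance gene start, with a median of 20.1 kb. No such distance is given for peaks of other genes, so it is a description only. Just outside the windows at starts, regions lay 1141 bp from a start of Sema6d, 1473 bp from one of Plxna2, 1797 bp from one of Plxnd1 and 1891 bp from one of Sema3d. These were not starts beside a PHF2 peak. The nearest peak lay 52.5 kb from the Sema6d region, 169.7 kb from that of Plxna2 and 193.5 kb from that of Sema3d, and Plxnd1 had no peak. Neither a PHF2 peak at a start nor an H3K9me2 region in the body was found in 22 genes (36.1%), and in 54.3% of other genes. PHF2 peaks per Mb of gene body were 3.30 in guidance genes (2.26 to 4.66) and 6.54 in other genes, and 30 of the 32 peaks in guidance genes lay at starts. Over 200 kb the density was 1.48 in guidance genes and 1.41 in other genes.

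Other genes of the guidance pathways, 68 genes for further cues and receptors, adaptors, GTPase regulators and actin regulators, had PHF2 peaks at 43 (63.2%, against 30.3% of all genes). The windows of the 61 ligand and receptor genes had a median length of 4295 bp and those of these genes 8030 bp, and the part of this difference in the counts was not tested. The highest scores were 1519 at Srgap2, a GTPase-activating protein of Slit-Robo signalling, 1125 at Chn2, a Rac GTPase-activating protein, 1042 at the adaptor gene Nck2, 957 at Vav3, a guanine nucleotide exchange factor, and 933 at Cfl1, which encodes the actin-severing protein cofilin. H3K9me2 regions lay at starts of 2 of the 68 (2.94%, against 3.61% of all genes), Srgap2 and Robo2. The 68 genes were long, with a median of 117.5 kb against 17.6 kb for genes other than the 61 ligand and receptor genes. H3K9me2 regions lay in the bodies of 36 (52.9%, against 24.9% of all genes), and the part of length in this share was not tested. Their density was 11.9 per Mb (9.94 to 14.1), where genes other than the 61 had 13.4. The most were 10 each in Ntng1, a netrin-G gene, Robo1 and Vav3, then 9 in Robo2 and 8 each in Dscam and Slit3.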

How the data were processed

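PHF2 and H3K9me2 ChIP-seq lists of 1 sample each were used. MACS, run in Galaxy, made the PHF2 list, per the file headers. Its deposited score per peak has a scale not given in the sources used here. Bowtie2 and mm10 stand in the submitters' processing notes. The H3K9me2 regions have a deposited score of 0 throughout, so only their positions and lengths were used. Their caller and threshold test, too, are not given in the sources used here. Scores served to rank peaks within their list. Lists hold no read totals, so depth is unknown.

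Genes and starts came from GENCODE M21 and sequences from GRCm38.p6, and 0 deposited intervals ran past a chromosome end of that assembly. Overlaps were counted with Python 3.11.15 and pysam 0.24.0 (1 bp or more, windows of 1 kb either side of all annotated transcript starts), and exact Poisson intervals with scipy 1.17.1. Overlap counting was tested on simulated peaks. The members and lists were chosen with earlier results of these data known. Values were given for all guidance genes with a PHF2 peak, the 10 with most H3K9me2 regions, the 5 most CpG-rich without a peak, those with a PHF2 peak just outside the windows, and the leading 5 pathway genes by PHF2 score and by H3K9me2 regions (ties kept), and the other guidance genes by name and count. The CpG-poor genes and those with an H3K9me2 region just outside the windows were chosen after their values were seen. No chance test was run. Alternatives covered windows, choice of starts, stricter lists and other ways to count gene bodies, and 2 were chosen after seeing the data (genes over 200 kb, and without Dcc). The sequence of a further region is not reported here.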

Additional observations from a re-analysis of the deposited data

How the results depend on the processing

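The count of 29 guidance genes with a PHF2 peak was the same with windows of 500 bp, 2 kb and 5 kb, with starts of coding transcripts, with the peak centre inside the window and without Unc5cl. It was 25 of 61 with the 5'-most start alone (28.2% of other genes). Among the higher-scoring 50% of peaks it was 20 of 61 (32.8%, against 15.4% of other genes). H3K9me2 regions lay at starts of 4 of 61 guidance genes with windows of 2 kb (7.15% of other genes) and of 8 of 61 with windows of 5 kb (15.9%). They lay at starts of 0 of 61 with 500 bp (1.71% of other genes), with the 5'-most start alone (1.5%) and with regions over the minimum length (1.52%). With shares this low in other genes, a difference was not detectable with 61 genes. The density of H3K9me2 regions in gene bodies was 7.01 per Mb with regions over the minimum length (5.90 in other genes). The median over genes was 0 in guidance genes and 0 in other genes. The density lay between 16.7 and 19.6 per Mb under the other alternatives run. PHF2 peaks per Mb outside the start windows were 2.23 in guidance genes and 1.67 in other genes, with peaks that cross a window edge counted. Only 2 guidance genes (3.28%) had a peak clear of all their start windows, against 1.07% of other genes. The value of 2.23 thus counts mainly peaks at starts that extend past a window edge. Its order is the reverse of that over whole gene bodies, but it does not measure PHF2 away from starts. Over whole gene bodies the higher-scoring 50% of peaks gave 2.27 in guidance genes and 3.29 in other genes. No paired analysis was possible because each group had 1 sample. The lists do not show signal under their thresholds, so a gene without a peak is not shown to lack PHF2.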
